A study of Mus musculus with 6 samples.

Results

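The potassium channels and the proton channel of the macrophage membrane were described here through 9 genes, which are 9 of the 55421 genes in the deposited count table. They were Kcnj2, Kcnj10, Kcnn4, Kcna3, Kcnq1, Kcnab2, Kcnk6, Kcnk13 and Hvcn1, matched to their Ensembl identifiers by GRCm38 gene symbol. The set was chosen by the fold changes of Kcnj2 and Kcnn4 between conditioned medium and untreated wells. The other genes were added as further potassium channel genes, a channel subunit gene and the proton channel gene, and not all are known mainly from macrophages. All values of these 9 genes from that comparison are therefore a description and carry no p-value, and whether a gene passed the threshold of the fit across all genes is stated in the same sense and supports nothing. Of the 9, 8 passed the filter on low counts and were among the 13853 genes tested, and Kcnq1 did not.

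The libraries came from wild-type (WT) mouse macrophages grown out of bone marrow with 20 ng/mL of macrophage colony-stimulating factor (M-CSF) and 10% serum. In the conditioned-medium group, 3 wells received 50% medium taken from LL-2 cultures (mouse Lewis lung carcinoma) for 24 h. The untreated group was 3 wells kept without conditioned medium, and both groups had RPMI-1640 with serum and M-CSF. The conditioned-medium wells therefore held less fresh medium than the untreated wells. No well with medium from another cell type was analysed here, so less fresh medium and tumour cell products cannot be told apart. The labels used here give no strain and no age, and do not say that wells came from separate animals, so the spread between wells may be technical. Library totals were 28447825 to 30040682 counts with conditioned medium and 24179548 to 25916709 counts untreated, and each conditioned-medium library was the deeper. Wells numbered 3 stood apart from the others on the second principal component, which held 17.9% of the variance.

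Potassium channels let potassium leave or enter the cell along its gradient and so set the membrane voltage, which in turn drives calcium entry. In macrophages this voltage is held mainly by inward rectifier and tandem-pore channels, while calcium-activated and voltage-gated channels open on stimulation, and potassium loss is a known trigger of the NLRP3 inflammasome. The voltage-gated proton channel carries protons out and balances the charge that the phagocyte NADPH oxidase moves during the respiratory burst.

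Potassium channel pores share a signature of 5 codons that encodes the core of the selectivity filter, and it is shown here because it is what most of these genes share. This signature was searched in frame, on the coding strand only, in the longest complete coding sequence of each gene in GENCODE M21 (GRCm38). It was found in 69 of 21584 genes (0.32%), 49 of them among 71 other potassium channel pore genes. Of the 9 genes here, 6 held 1 match each. The stretches of 5 of them are printed, with the 5 codons in capitals.
Kcnj2: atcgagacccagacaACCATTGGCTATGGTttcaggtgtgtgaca
Kcnn4: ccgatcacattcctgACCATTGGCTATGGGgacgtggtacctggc
Kcna3: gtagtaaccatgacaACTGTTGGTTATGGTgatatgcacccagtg
Kcnq1: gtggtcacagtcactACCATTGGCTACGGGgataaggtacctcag
Kcnk6: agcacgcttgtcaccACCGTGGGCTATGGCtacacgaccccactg
These letters were not in the coding sequences of Kcnk13, Kcnab2 and Hvcn1. Kcnab2 encodes a cytoplasmic subunit and Hvcn1 a channel with no separate pore, while Kcnk13 does encode a potassium pore.

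The promoters of the 3 genes with the largest differences are shown because Kcnj2 and Kcnn4 moved together and Kcnj10 moved the other way. Each sequence is the 250 bases before the gene start, from RefSeq (GRCm38.p6), on the plus strand at chr11:111065914-111066163, chr7:24370013-24370262 and chr1:172340960-172341209. Capitals mark matches on either strand to 4 short motifs. The GC box, GGGCGG, stands in 32.7% of all 32851 promoter windows of this length. The CCAAT box, with those 5 letters, stands in 33.8% of them. The core of PU.1 sites was searched as GAGGAA, which stands in 23.3% of the windows. The core of hypoxia response elements was searched as ACGTG, which stands in 16.6% of the windows.
Kcnj2: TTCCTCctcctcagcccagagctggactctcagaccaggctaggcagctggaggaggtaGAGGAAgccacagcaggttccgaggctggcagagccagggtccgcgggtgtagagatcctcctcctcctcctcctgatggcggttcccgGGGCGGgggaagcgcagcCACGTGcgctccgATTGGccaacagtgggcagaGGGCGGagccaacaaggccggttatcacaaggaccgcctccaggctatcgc
Kcnn4: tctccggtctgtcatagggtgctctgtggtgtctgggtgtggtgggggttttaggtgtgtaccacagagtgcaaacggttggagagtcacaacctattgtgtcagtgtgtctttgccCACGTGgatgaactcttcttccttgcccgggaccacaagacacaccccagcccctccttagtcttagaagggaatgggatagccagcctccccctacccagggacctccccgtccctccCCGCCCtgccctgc
Kcnj10: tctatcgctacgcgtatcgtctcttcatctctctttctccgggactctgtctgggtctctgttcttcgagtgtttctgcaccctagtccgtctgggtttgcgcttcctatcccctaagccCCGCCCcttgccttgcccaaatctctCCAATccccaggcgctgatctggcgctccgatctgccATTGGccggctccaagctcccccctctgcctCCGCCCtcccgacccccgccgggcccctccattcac
The Kcnj2 window held 2 GC boxes, 1 CCAAT box, 2 PU.1 cores and the palindrome CACGTG. This palindrome holds the letters ACGTG on both strands, in 2 overlapping matches, and these letters alone do not show a hypoxia response element. Kcnn4 had 1 GC box and the same palindrome. In Kcnj10 there were 2 GC boxes and 2 CCAAT boxes and no hypoxia response core. A further 5 motifs had no match in these 3 windows. The TATA box was searched as TATAAA, which stands in 12.4% of all windows. AP-1 sites were searched as TGANTCA, which stands in 6.75% of the windows. The letters for STAT sites were TTCNNNGAA, which stand in 7.02% of the windows. For C/EBP sites they were TTNCGCAA, which stand in 0.67% of the windows. The core of the interferon-stimulated response element stood in 2.98% of the windows. The windows held 14 CpG for Kcnj2, 6 for Kcnn4 and 17 for Kcnj10, against a median of 6 over all windows. RefSeq windows matched 6 of the 9 genes. Of the matched genes whose windows are not printed, Kcnab2 also held the hypoxia response core (log2 fold change -0.16, not past the threshold). Kcna3 (log2 fold change -0.85) and Kcnk13 (-0.10) did not hold it. Whether any of these motifs bears on the differences was not tested.

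Inward rectifier transcripts moved in opposite directions. Kcnj2 encodes Kir2.1, the inward rectifier that holds the resting voltage of macrophages (ENSMUSG00000041695, chromosome 11, 111066164 to 111076821). Its level was 28.9, 29.6 and 27.6 CPM in the conditioned-medium libraries, against 88.7, 87.9 and 86.3 CPM in the untreated libraries (CPM, each count scaled to the library total after TMM scaling). No conditioned-medium library came near the untreated range. The means were 28.7 ± 1.02 CPM with conditioned medium and 87.7 ± 1.22 CPM untreated (SD, n = 3 each), 3.05-fold lower with conditioned medium (log2 fold change -1.61, SE 0.05). From bulk RNA, less transcript per cell and fewer cells that hold it cannot be told apart.

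Kcnj10 encodes Kir4.1, best known as the potassium-buffering channel of glia (ENSMUSG00000044708, chromosome 1, 172341210 to 172374085). Its level was 71.8, 60.6 and 62.5 CPM in conditioned medium, against 30.9, 29.03 and 28.6 CPM in untreated wells. All 3 conditioned-medium libraries were far above the untreated ones, and conditioned-medium well 1 was the highest. Means of 64.97 ± 6.00 CPM in conditioned medium and 29.5 ± 1.20 CPM untreated (SD, n = 3 each) gave a 2.20-fold higher level (log2 fold change 1.14, SE 0.07). Kcnj10 and Kcnj2 have similar exon lengths, 5407 and 5444 bases, so their CPM can be set side by side, and Kcnj10 was the higher of the pair in each conditioned-medium library and the lower in each untreated library.

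The calcium-activated channel transcript was also lower. Kcnn4 encodes KCa3.1, which opens when calmodulin bound to it takes up calcium, and has been tied to macrophage migration and fusion (ENSMUSG00000054342, chromosome 7, 24370263 to 24386690). Conditioned-medium libraries had 29.7, 31.7 and 31.2 CPM, against 75.1, 76.2 and 76.1 CPM in untreated libraries. The spread within each group was small beside the gap. Mean levels were 30.9 ± 1.03 CPM with conditioned medium and 75.8 ± 0.640 CPM untreated (SD, n = 3 each), 2.46-fold lower with conditioned medium (log2 fold change -1.30, SE 0.05). Between wells of the same number, the log2 difference ran from -1.34 to -1.26 for Kcnn4, from -1.64 to -1.57 for Kcnj2 and from 1.06 to 1.22 for Kcnj10.

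Among the voltage-gated channel genes, Kcna3 was scarce and Kcnq1 was at the detection limit. Kcna3 encodes Kv1.3, a channel of lymphocytes and macrophages, in 1 exon (ENSMUSG00000047959, chromosome 3, 107036169 to 107038070). It had 1.48, 2.10 and 1.58 CPM in conditioned medium, against 3.64, 3.18 and 2.53 CPM untreated. The groups did not overlap, but the highest conditioned-medium well was close to the lowest untreated well. The means were 1.72 ± 0.334 CPM in conditioned medium and 3.11 ± 0.559 CPM untreated (SD, n = 3 each), a log2 fold change of -0.85 (SE 0.22). These levels rest on 155 counts in the conditioned-medium libraries (exact 95% Poisson interval 132 to 181) and 227 in the untreated libraries (198 to 259), intervals that cover counting error only. The fit no longer placed Kcna3 past its threshold without conditioned-medium replicate 1, untreated replicate 1 or untreated replicate 2, where its log2 fold change was -0.76, -0.73 and -0.84.

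Kcnq1 encodes Kv7.1, a channel of heart and epithelia (ENSMUSG00000009545, chromosome 7, 143106362 to 143427042). It had 0 counts in each conditioned-medium library and in untreated wells 2 and 3, and 1 count in untreated well 1. A library with 0 counts allows up to 3 counts, or 0.0984 to 0.124 CPM across the 5 libraries at 0, so Kcnq1 was not detectable at this depth. Kcnq1ot1, the antisense RNA that starts inside Kcnq1 and overlaps 121 bases of its exons, had 155, 155 and 160 counts in conditioned medium and 172, 184 and 116 counts untreated.

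Kcnab2 encodes the beta subunit that sits under voltage-gated pores such as Kv1.3 and resembles aldo-keto reductases (ENSMUSG00000028931, chromosome 4, 152390742 to 152477910). It had 115, 114 and 116 CPM in conditioned-medium libraries, against 121, 126 and 138 CPM in untreated libraries. Conditioned-medium wells were nearly alike and lay just below the untreated wells, which spread more. The log2 fold change was -0.16 (SE 0.05). Kcnab2 did not pass the threshold of the fit across all genes, and did so with the replicate number as a block, with RLE scaling, with robust dispersions and without untreated replicate 1.

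The tandem-pore transcripts differed little between groups. Kcnk6 encodes TWIK2, the channel described in mouse macrophages as a route of potassium loss that activates NLRP3 (ENSMUSG00000046410, chromosome 7, 29221926 to 29232515). Its level was 110.3, 103 and 106 CPM with conditioned medium, against 92.6, 94.6 and 96.3 CPM untreated. Every conditioned-medium well was above every untreated well, by a small step, with a 1.12-fold higher mean level (log2 fold change 0.17, SE 0.04). Without conditioned-medium replicate 1, untreated replicate 1 or untreated replicate 2 it did not pass the threshold, with log2 fold changes of 0.14, 0.15 and 0.17. Kcnk13 encodes THIK-1, the main resting potassium channel of microglia (ENSMUSG00000045404, chromosome 12, 99964499 to 100062682). It had 50.9, 54.3 and 54.2 CPM in conditioned medium and 54.7, 56.6 and 59.5 CPM untreated, with a log2 fold change of -0.10 (SE 0.05). The highest conditioned-medium well and the lowest untreated well were almost equal, and Kcnk13 did not pass the threshold.

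Hvcn1 encodes Hv1, the voltage-gated proton channel (ENSMUSG00000064267, chromosome 5, 122206804 to 122242297). It had 76.9, 82.02 and 75.1 CPM in conditioned-medium wells, against 125, 117 and 119.8 CPM in untreated wells. The groups were well separated. Means of 78.0 ± 3.61 CPM in conditioned medium and 120.4 ± 4.09 CPM untreated (SD, n = 3 each) gave a 1.54-fold lower level with conditioned medium (log2 fold change -0.63, SE 0.05). Tctn1, on the opposite strand, overlaps 44.2% of the exon length of Hvcn1, and the sources used here do not say whether counting used strand, so the Hvcn1 counts are uncertain. Tctn1 itself had 265, 274 and 293 counts in conditioned medium and 161, 156 and 179 counts untreated, the opposite direction from Hvcn1.

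**Figure D1:**
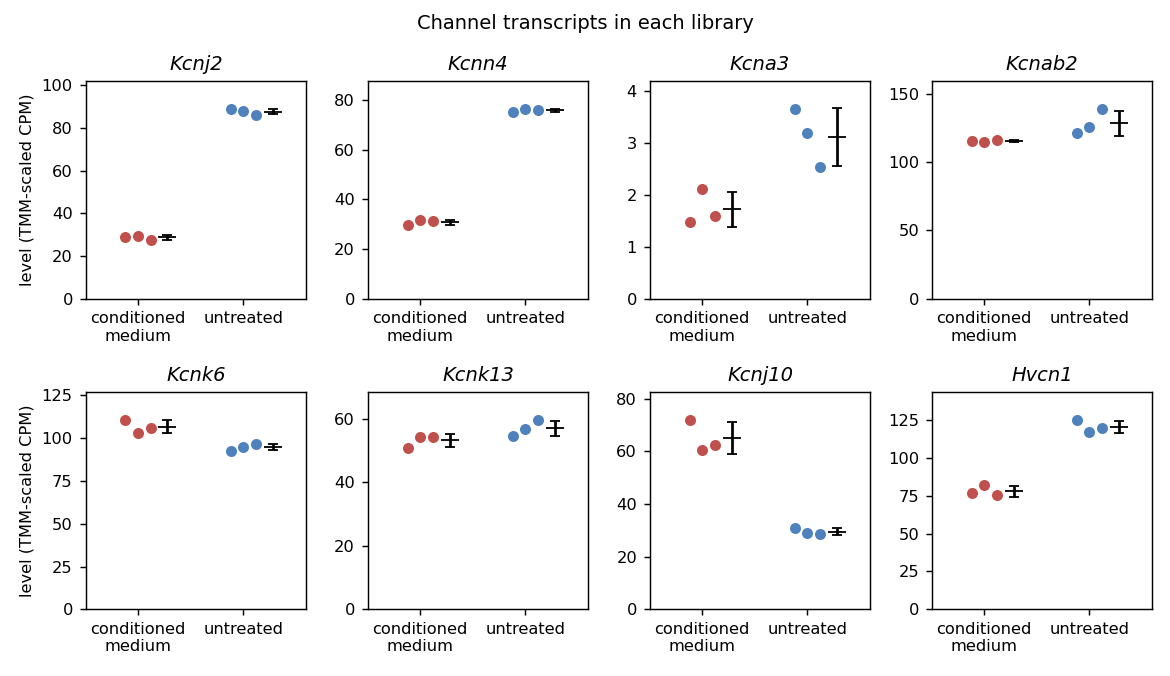
Level of 8 channel genes in TMM-scaled CPM on the y axis, with 3 conditioned-medium wells (red, left) and 3 untreated wells (blue, right) as points, replicates 1 to 3 from left to right, and the mean with its SD as a black bar. The y axes differ between genes and start at 0. Kcnj2 and Kcnn4 sit near 30 CPM in conditioned medium and above 75 CPM untreated, and Kcnj10 shows the reverse order.

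In the fit across all genes (edgeR's quasi-likelihood test, Benjamini-Hochberg adjusted p under 0.05), 4 of the 8 tested genes were called lower with conditioned medium and 2 higher. Over all 13853 tested genes 15.2% were called lower and 12.6% higher (27.9% in all), or 1710 lower and 2656 higher without scaling beyond the total count, against 2112 and 1749 with TMM. With the replicate block 5 of the 8 were called lower and 2 higher, against 19.3% and 17% of all genes. The median log2 fold change was -0.39 over the 8 and 0.01 over all tested genes. The groups did not overlap for 6 of the 8 genes in the lower direction and for 2 in the higher direction. Over all tested genes these shares were 21.6% and 21.2% (42.8% together). Since the genes were chosen with this comparison known, nothing is read from these counts.

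**Figure D2:**
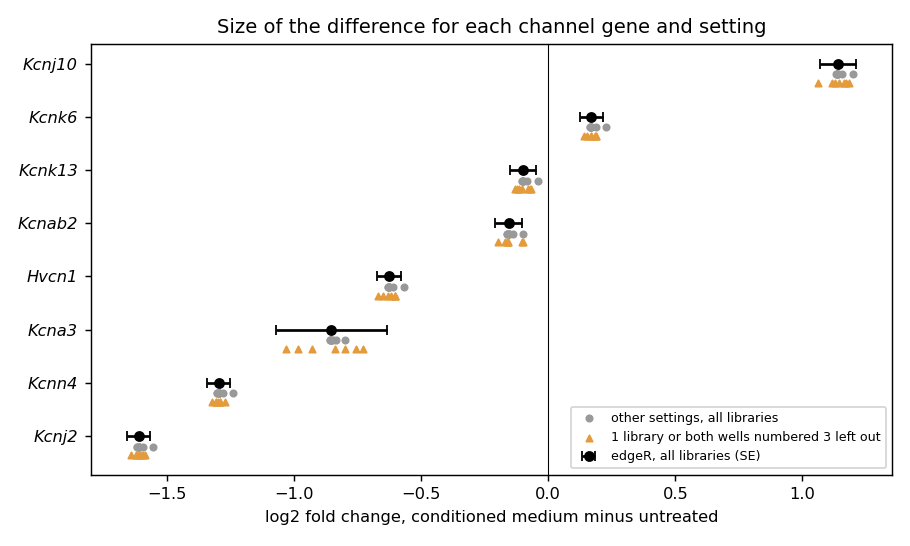
Log2 fold change (conditioned medium minus untreated, x axis) of 8 channel genes under each setting. Black points with bars are the edgeR values with their SE, grey points the other settings with all libraries, and orange triangles the fits with 1 library, or both wells numbered 3, left out. Each gene stays on its side of 0, with Kcnj2 between -1.64 and -1.55 and Kcnk13 between -0.13 and -0.04.

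Levels were compared between genes per kilobase of exon length as the table gives it, which merges all annotated transcripts and so lowers genes with many of them, such as Kcnab2 with 14. In conditioned medium the order of mean levels was Kcnk6 (25.6 CPM per kb), Hvcn1 (21.9), Kcnk13 (17.1), Kcnab2 (16.5), Kcnj10 (12.02), Kcnn4 (6.03), Kcnj2 (5.27) and Kcna3 (0.904). In untreated wells it was Hvcn1 (33.8 CPM per kb), Kcnk6 (22.8), Kcnab2 (18.4), Kcnk13 (18.3), Kcnj2 (16.1), Kcnn4 (14.8), Kcnj10 (5.45) and Kcna3 (1.64). Kcnab2 and Kcnk13 were neighbours whose ranges overlapped in both groups, while every other neighbouring pair of these 8 was separated beyond the spread of the wells. Kcnj10 stood above Kcnn4 and Kcnj2 in conditioned medium and below both in untreated wells.

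Summed over 78 potassium channel pore genes, 7 of them from the set described here and 26 with 0 counts in each library, the pore level was 76.9 ± 0.817 CPM per kb in conditioned medium and 89.5 ± 0.316 CPM per kb in untreated wells (SD, n = 3 each). Kcnj2 and Kcnn4 together made up 14.3%, 15.1% and 14.7% of that sum in the conditioned-medium libraries, against 34.7%, 34.6% and 34.4% in the untreated libraries. Kcnj10 took 15.6% ± 1.32 in conditioned medium and 6.10% ± 0.262 untreated. Kcnk6 was the largest single part in both groups, at 33.3% ± 1.04 in conditioned medium and 25.5% ± 0.489 untreated, followed in both by Kcnk13, at 22.2% ± 1.02 in conditioned medium and 20.4% ± 0.870 untreated. Tmem175, the lysosomal potassium channel, made up 6.72% ± 0.243 in conditioned medium and 6.28% ± 0.0583 untreated (SD, n = 3 each). Its counts are uncertain too, since Dgkq on the opposite strand overlaps 35.3% of its exon length, with 507, 512 and 539 counts in conditioned medium and 361, 424 and 430 counts untreated. All other pore genes together held 6.29% ± 0.846 in conditioned medium and 5.32% ± 0.705 untreated. Shares of the same sum are tied, so lower Kcnj2 and Kcnn4, the genes behind the choice of the set, enlarge the others. Kcnk13 had the larger share in conditioned medium at a lower level, 17.1 against 18.3 CPM per kb untreated. Kcnk6 had 25.6 against 22.8 CPM per kb, and Kcnj10 12.02 against 5.45 CPM per kb.

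**Figure D3:**
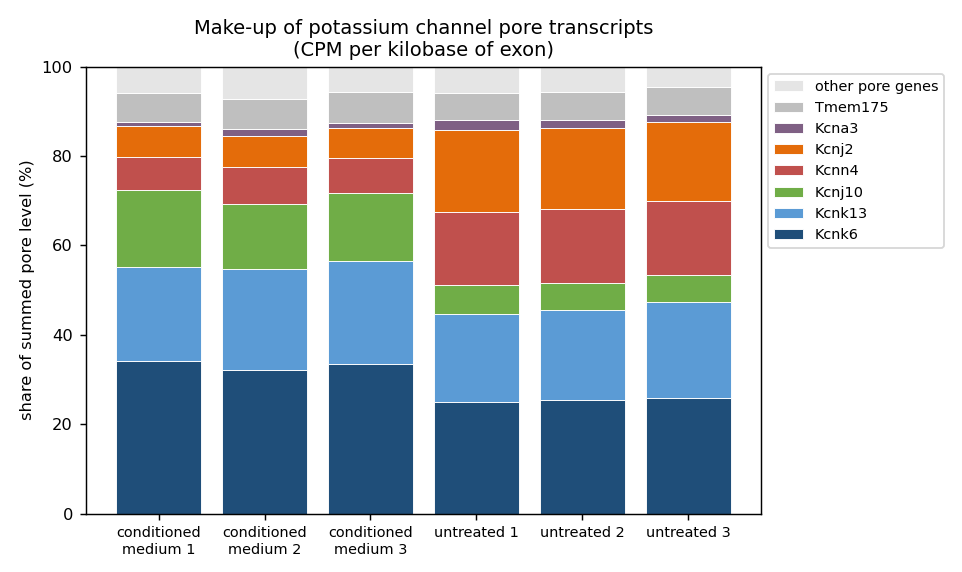
Share of the summed potassium channel pore level (CPM per kilobase of exon, y axis in percent) taken by each gene, with 1 bar per library, conditioned-medium wells on the left and untreated wells on the right. Kcnj2 and Kcnn4 shrink to 14.7% together in conditioned medium, against 34.6% in untreated wells, and Kcnj10 and Kcnk6 take larger shares. Shares of the same sum are tied, so a larger share is not by itself a higher level.

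The genes most like each channel were found by Pearson's r of log2(CPM + 1) over the 6 libraries, among 9295 or 9296 genes with a mean of at least 5 CPM. With 2 groups of wells, r mostly follows the group difference, ignores its size and shares library depth, so it is a description. For Kcnj2 they were Bloc1s6, Eif4g2 and Cd180 (r from 0.9996 to 0.9998), with log2 fold changes of -0.23, -0.21 and -1.52. For Kcnn4 they were Cd37, Esyt1 and Rnh1 (r from 0.9993 to 0.9998), and for Kcnj10 Klhl21, Map4k4 and Ddit4 (0.998 for each). Hvcn1 was matched by Dusp7, Mtpn and Ttc7b (0.998 for each) and Kcna3 by Vapa, Hnrnpab and Syne2 (0.990 to 0.995). Kcnk6 was matched by Traf3ip3, Atf7ip and Akap13 (0.991 to 0.996), Kcnab2 by Rpl10a-ps1, AA414768 and Slc38a10 (0.991 to 0.995), and Kcnk13 by Puf60, Ptpn23 and Atp5a1 (0.981 to 0.984).

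Some genes next to Kcnj10, Kcnj2 and Kcna3 on the chromosome were also read, and other neighbours are not reported here. Kcnj9, another inward rectifier, is the nearest tested gene on the low-coordinate side of Kcnj10, 11892 bases away and on the opposite strand. It rose with conditioned medium, with 4.15 ± 0.407 CPM in conditioned medium and 2.32 ± 0.557 CPM untreated (SD, n = 3 each; log2 fold change 0.84, SE 0.20, edgeR adjusted p = 0.0126). Pigm, 2461 bases away on the other side, had a log2 fold change of 0.10 and did not pass (edgeR adjusted p = 0.329). Kcnj16, 38196 bases from Kcnj2, had 0.510 CPM in conditioned medium and 0.383 CPM untreated and did not pass either (edgeR adjusted p = 0.531). The Kcnj9 call was lost without conditioned-medium replicate 1 (edgeR adjusted p = 0.0588). AI504432 lies 1434 bases from Kcna3 on the same strand. It had 4.73 CPM in conditioned medium and 8.04 CPM untreated (log2 fold change -0.76, edgeR adjusted p = 0.0489). Cd53, 246020 bases away on the other side of Kcna3, was lower too (log2 fold change -0.33, edgeR adjusted p = 0.00108).

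Outside the 9 genes, few potassium channel genes were expressed. Of 71 other pore genes, 13 were tested, 2 rose (15.4%) and 1 fell (7.69%), against 12.6% higher and 15.2% lower over all tested genes. The median log2 fold change of the 13 was -0.12. Kcnn1, a small-conductance calcium-activated channel, rose to 2.47 ± 0.838 CPM in conditioned medium, against 1.01 ± 0.383 CPM untreated (SD, n = 3 each; edgeR adjusted p = 0.0207). Kcnj9 was the other rise. Kcnd1, a voltage-gated channel of the A-type current, fell to 1.51 ± 0.355 CPM in conditioned medium, against 3.02 ± 0.487 CPM untreated (edgeR adjusted p = 0.01003, SD, n = 3 each). The rises were 1 without conditioned-medium replicate 1 or 2 and without untreated replicate 2 or 3, and 3 with the replicate block and with no low-count filter. The falls were 2 with the replicate block, with no low-count filter and without untreated replicate 3. The Kcnn1 call was lost when leaving out conditioned-medium replicate 2 (edgeR adjusted p = 0.0834), untreated replicate 2 (0.08) or untreated replicate 3 (0.0541).

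Of 24 auxiliary subunit genes, 5 were tested, and 1 rose and 0 fell, against 12.6% higher and 15.2% lower over all tested genes. The rise was that of Kcnab3, a further beta subunit, at 0.995 ± 0.373 CPM in conditioned medium and 0.423 ± 0.120 CPM untreated (SD, n = 3 each; edgeR adjusted p = 0.0401). Its call was lost with DESeq2, with limma-voom and without conditioned-medium replicate 1 or 2 or any 1 untreated replicate (adjusted p from 0.0572 to 0.168), and the gene was not tested with the filter of at least 1 CPM.

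Of 8 genes for proteins that gate or regulate KCa3.1, all tested, 3 fell and 1 rose, against 15.2% lower and 12.6% higher over all tested genes. Calm3, a calmodulin gene, fell to 169 ± 6.87 CPM in conditioned medium, against 210.3 ± 2.07 CPM untreated (SD, n = 3 each; edgeR adjusted p = 0.000728), while Calm2, another, had a log2 fold change of 0.00 and did not pass. Pik3c2b, a lipid kinase that activates the channel in T cells, fell to 0.579 ± 0.105 CPM in conditioned medium, against 1.28 ± 0.361 CPM untreated (edgeR adjusted p = 0.0246; SD, n = 3 each). Phpt1, a histidine phosphatase that inhibits it, rose to 0.765 ± 0.162 CPM in conditioned medium, against 0.343 ± 0.0539 CPM untreated (edgeR adjusted p = 0.0298; SD, n = 3 each). Mamdc4 covers 38.9% of the Phpt1 exons, so its counts are uncertain. The Phpt1 call was lost with DESeq2, with no low-count filter, without both wells numbered 3 and without any 1 library except conditioned-medium replicate 3 (adjusted p from 0.0521 to 0.13). Pik3c2b and Phpt1 were not tested with the filter of at least 1 CPM. Pik3c2b was lost without conditioned-medium replicate 1 or 2 or untreated replicate 1 or 2 (edgeR adjusted p from 0.0602 to 0.101).

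Calcium entry across the surface membrane depends on the voltage that potassium channels set. The calcium list also holds channels of internal membranes, and a link of its genes to the potassium channels was not tested. Of 25 calcium channel genes, 21 were tested, 8 fell (11 with the replicate block) and 4 rose, against 15.2% lower and 12.6% higher (19.3% and 17% with the block) over all tested genes, with a median log2 fold change of -0.16. Mcoln3, an endolysosomal calcium channel, fell to 31.0 ± 1.29 CPM in conditioned medium, against 78.6 ± 2.19 CPM untreated (SD, n = 3 each; edgeR adjusted p = 3.89e-07). Trpv4, a calcium-permeable channel opened by swelling and warmth, rose to 68.1 ± 1.83 CPM in conditioned medium, against 31.6 ± 3.11 CPM untreated (SD, n = 3 each; edgeR adjusted p = 5.69e-06). Ryr1, a calcium release channel, fell to 0.772 ± 0.338 CPM in conditioned medium, against 1.80 ± 0.311 CPM untreated (SD, n = 3 each; edgeR adjusted p = 0.0264), a call lost without conditioned-medium replicate 1 or untreated replicate 1 or 2 (0.0693 to 0.102). The 8 falls became 4 without scaling beyond the total count. They became 4 and 5 when replicate 1 or 2 of the conditioned-medium group was left out, and 3 and 4 when replicate 1 or 2 of the untreated group was.

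Of 21 chloride and anion channel genes, 18 were tested, 5 fell (8 with the replicate block) and 3 rose (4 with the block, 5 without scaling beyond the total count and without both wells numbered 3). The shares over all tested genes were 15.2% lower and 12.6% higher (19.3% and 17% with the block). Clic4, an intracellular chloride channel protein, fell to 157 ± 12.8 CPM in conditioned medium, against 301 ± 2.86 CPM untreated (SD, n = 3 each; edgeR adjusted p = 6.32e-06). Best1, a calcium-activated chloride channel, and Ttyh2, of the tweety family, fell by 1.03 and 0.61 on the log2 scale (edgeR adjusted p = 9.01e-05 and 0.000144). Of 13 genes for the sodium-potassium pump and chloride-coupled potassium transport, 11 were tested, 3 fell and 1 rose, against the same shares over all tested genes. The sodium-potassium-chloride cotransporter gene Slc12a2 fell by 0.41 on the log2 scale (edgeR adjusted p = 0.0230). The rises were 2 with the replicate block, with no low-count filter and without scaling beyond the total count, and 3 without untreated replicate 3 and without both wells numbered 3. Slc12a2 was lost without conditioned-medium replicate 1 or 3, untreated replicate 1 or 3, or both wells numbered 3 (edgeR adjusted p from 0.0523 to 0.093).

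Beside the proton channel, 13 of 21 proton and bicarbonate transport genes were tested, 3 fell (5 with the replicate block) and 1 rose. Among all tested genes 15.2% were lower and 12.6% higher (19.3% and 17% with the block). The rise was that of Slc9a9, an endosomal sodium-proton exchanger, which reached 226 ± 20.7 CPM in conditioned medium, against 139.8 ± 6.40 CPM untreated (SD, n = 3 each; edgeR adjusted p = 9.30e-05). The bicarbonate transporter genes Slc4a8 and Slc4a3 fell by 1.42 and 1.01 on the log2 scale, to 1.20 and 0.844 CPM in conditioned medium (edgeR adjusted p = 0.0178 and 0.0162). Without untreated replicate 1 the falls were 1, and without conditioned-medium replicate 3 or the low-count filter the rises were 2. Slc4a8 was lost without untreated replicate 1 or 2 (edgeR adjusted p = 0.0555 and 0.0590), and Slc4a3 without conditioned-medium replicate 2 or untreated replicate 1 (0.0563 and 0.0728).

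The proton channel balances the charge moved by the NADPH oxidase. Of 9 oxidase genes, all tested, 3 fell and 1 rose, against 15.2% lower and 12.6% higher over all tested genes. Cyba, the membrane subunit p22phox, fell to 549 ± 22.5 CPM in conditioned medium, against 801 ± 10.7 CPM untreated (SD, n = 3 each; edgeR adjusted p = 3.21e-05). Cybb, the catalytic subunit, fell to 1953 ± 217 CPM in conditioned medium, against 2492 ± 358 CPM untreated (SD, n = 3 each; edgeR adjusted p = 0.0347). Rac2, the GTPase that activates it, fell by 0.20 on the log2 scale (edgeR adjusted p = 0.0287). Without conditioned-medium replicate 1 or 2, without untreated replicate 3 or without scaling beyond the total count the falls were 1, as Cybb and Rac2 were lost. Cybb was also lost with robust dispersions (edgeR adjusted p = 0.0791) and Rac2 without untreated replicate 2 (0.0972). The rises were 0 without conditioned-medium replicate 1 or 2 or untreated replicate 1 or 2, and 2 with the replicate block, with DESeq2, with no low-count filter, without scaling beyond the total count, without untreated replicate 3 and without both wells numbered 3.

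Of 9 genes that join potassium loss to NLRP3, all tested, 2 rose (3 with the replicate block) and 2 fell. The shares over all tested genes were 12.6% higher and 15.2% lower (17% and 19.3% with the block). The receptor gene Nlrp3 rose to 119 ± 10.5 CPM in conditioned medium, against 95.98 ± 10.8 CPM untreated (SD, n = 3 each; edgeR adjusted p = 0.0230), and P2rx7, the ATP-gated channel that lets potassium out, rose by 0.24 on the log2 scale (0.00247). Casp1, the inflammasome protease gene, fell to 58.6 ± 2.17 CPM in conditioned medium, against 77.8 ± 6.11 CPM untreated (SD, n = 3 each; edgeR adjusted p = 0.00109). The rises were 1 without conditioned-medium replicate 3 or untreated replicate 1 or 2, where Nlrp3 was lost (edgeR adjusted p from 0.0508 to 0.0959). Over all 9 channel and transport lists together, 107 of 201 genes were tested, 28 fell (26.2%) and 16 rose (15%), against 15.2% lower and 12.6% higher over all tested genes, so the share that rose was near the background. The median log2 fold change was -0.07, against 0.01 over all tested genes. With the replicate block 37 fell and 21 rose, against 19.3% and 17% of all genes. The rises were 10 without conditioned-medium replicate 1 or untreated replicate 2. The falls ran from 20 to 37 over the alternatives, with 22 when no scaling beyond the total count was used. Since the lists were chosen with earlier results of these data known, nothing is read from the larger share that fell.

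**Figure D4:**
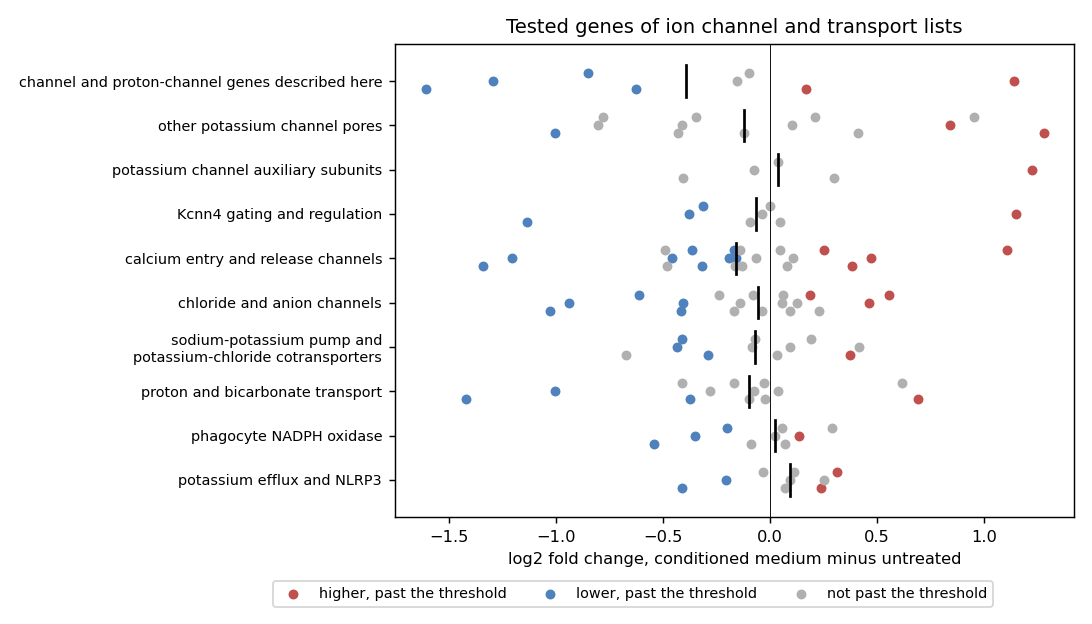
Log2 fold change (conditioned medium minus untreated, x axis) of each tested gene of the channel set described here and of 9 lists of channel and transport genes (rows). Red and blue points passed the edgeR threshold as higher or lower, grey points did not, and the black line is the median of the row. Medians of the 9 lists lie between -0.16 and 0.09.

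Markers of other cells that hold these channels were read in the same libraries. Their calls stand beside 15.2% lower and 12.6% higher over all tested genes (19.3% and 17% with the replicate block). Macrophage markers were abundant, summing to 57256 to 61926 CPM in conditioned medium and 51040 to 60325 CPM untreated over 8 genes, of which 3 rose (4 with the replicate block) and 3 fell. T cells are known for Kcna3, and T cell markers summed to 110.2 to 201 CPM in conditioned medium and 106 to 164 CPM untreated, nearly all of it Cd4. The T cell receptor complex gene Cd3e had 1 to 3 counts per library in conditioned medium and 0 to 4 untreated, and 0 of 2 tested T cell markers passed (1 with the replicate block). B cells are known for Hvcn1, and 1 of 6 tested B cell markers fell (2 with the block) and 0 rose, with sums of 134 to 153 CPM in conditioned medium and 145 to 190.1 CPM untreated. Of 8 neutrophil markers 1 rose (5 with the block) and 2 fell, summing to 423 to 511 CPM in conditioned medium and 348 to 494 CPM untreated. Of the mast cell and basophil markers, 4 of 5 tested fell and 1 rose (9.95 to 11.7 CPM in conditioned medium, 12.9 to 14.7 CPM untreated), and 3 of 5 tested dendritic cell markers fell and 0 rose (8.33 to 12.01 CPM in conditioned medium, 16.2 to 22.0 CPM untreated). Erythroid markers, of interest since red cells are known for KCa3.1, summed to 0.516 to 0.690 CPM in conditioned medium and 0.335 to 0.537 CPM untreated, with Hbb-bs and Hbb-bt at 0 in each library and 0 of 6 tested. Of 7 stromal and epithelial markers 0 of 4 tested passed (2 rose with the block), and they summed to 27.2 to 77.8 CPM in conditioned medium and 13.9 to 57.2 CPM untreated. The part of these cells in the differences of the channel genes was not tested.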

How the data were processed

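The values analysed were whole-number counts of reads per gene that the authors deposited, with each gene's position and exon length. HISAT2 and featureCounts, on GRCm38, are named in the submitters' processing notes. Their versions and whether counting used strand are not stated in those notes. GENCODE M21 gave symbols for 55240 of the 55421 identifiers. Low genes were removed with filterByExpr, libraries were scaled by TMM, and groups were compared by the quasi-likelihood test of edgeR 4.0.16 (with limma 3.58.1 in R 4.3.3), group being the one term. P-values of the 13853 tested genes were adjusted by Benjamini-Hochberg, and 0.05 was the threshold. A positive log2 fold change means more in conditioned medium, and its SE came from the F statistic. The script was tested on simulated data.

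The members and lists were chosen with earlier results of these data known. From each list the text names the 3 largest changes past the threshold, and in the pore, auxiliary subunit and KCa3.1 lists each one. Some genes and 1 coding stretch that this rule would give are not reported here. Genes named beside them (Calm2, Tmem175 and neighbours on the chromosome) were chosen after their values were seen. Both groups carry replicate numbers whose meaning is not stated. Same-numbered wells deviated together from their group means (r 0.328, 0.161 and 0.309, against -0.289 to 0.0112 between numbers), so the numbers were taken to pair the wells. Deviations from a group mean add up to 0 within the group, so positive r within numbers and negative r between numbers are not independent. The fit given has group alone, and the fit with the number as a block stands beside the calls and counts that it changes. Alternatives were RLE or no scaling, DESeq2 1.42.0, limma-voom, robust dispersions, other filters, the replicate number as a block, and fits without each library or without both wells numbered 3.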

Additional observations from a re-analysis of the deposited data

How the results depend on the processing

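Leaving out both wells numbered 3 was chosen after seeing the data. None of the 34 channel and transport genes named by rule, members included, turned direction in the 15 alternatives. Apart from the members, they were named for passing the threshold in these same libraries, so a turn was unlikely from the start. Of 507 values of these genes over the alternatives, 449 kept their side of the threshold, 54 (14 genes) lost it and 4 (Kcnab2) gained it. Kcnj2, Kcnn4, Kcnj10 and Hvcn1 kept theirs in each alternative. When libraries were scaled to their totals alone, 2656 genes instead of 1749 passed as higher, and the summed pore level was 78.5 CPM per kb in conditioned medium and 87.7 CPM per kb untreated. The median of all tested genes was then 0.07 on the log2 scale, against 0.01. Leaving out 1 library gave 1146 to 1653 higher and 1579 to 2001 lower genes over all tested genes. Of the members 1 to 2 were then higher and 3 to 4 lower. Of the channel and transport genes 10 to 17 were higher and 20 to 27 lower. With the replicate block 2355 genes were higher and 2668 lower, and no call of a member other than Kcnab2 changed. Depth limits Kcna3, Kcnq1 and the list genes under 1 CPM.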
